A study of Danio rerio with 6 samples.

Results

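Proteasome genes were examined in zebrafish blastulas injected with mRNA of *ndr1*, which encodes a ligand of the Nodal signalling pathway, and in control-injected blastulas. Members were all genes whose symbol in the platform annotation of the array begins with *psm*, a letter from *a* to *g* and a digit, which gave 53 of the 14434 named genes, carried by 67 of the 45220 features. Of these, 23 encode subunits of the core particle, 18 encode subunits of the regulatory particle, and 10 encode assembly chaperones, activators or an inhibitor. The other two, *psmc3ip* and *psme3ip1*, encode proteins named after a proteasome component and are not subunits. The rule reads the symbol and no measured value, although the family was taken up with earlier results of these data known. The subunit genes *psmb11b*, *psmd11a* and *psmd12* were not analysed here.

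Both groups were whole AB embryos at sphere stage, and each of the 6 samples held RNA from 200 embryos. Control-injected embryos (3 samples, called controls) had received 1 nl of water, and *ndr1*-injected embryos (3 samples) had received 50 pg of *ndr1* mRNA in the same volume. These amounts are those of the sample labels; the general injection methods of the study name a smaller amount of *ndr1* and an *egfp* mRNA control. Since water carries no RNA, an effect of injected RNA as such and one of *ndr1* cannot be told apart. A whole embryo is a mixture of cells, in which fewer cells of a type and less RNA per cell cannot be told apart. Nothing in the labels ties the replicates to separate clutches. P-values therefore reflect the spread among these 6 samples alone, and that spread may be technical.

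The proteasome degrades proteins that have been tagged with ubiquitin. Its core particle is a barrel of stacked rings, in which alpha subunits form the outer rings and the gate, and beta subunits form the inner rings, a few of which carry the proteolytic sites. The regulatory particle caps the barrel. It consists of a base with a ring of ATPases, which unfold substrates and feed them into the barrel, and a lid that removes the ubiquitin chains. In early embryos the proteasome clears cyclins in each division.

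Values are log2 signals of a one-colour array, normalised by the authors, and a gene with several features was read from the brightest one by mean signal. Brightness also depends on the probe, so signals were compared between samples and not between genes. Array medians lay between 8.70 and 8.71, and the members ran from 6.47 to 13.9, with 0 values at the top of an array's range. The injected gene *ndr1* read 10.6, 10.1 and 10.9 in controls and 13.8, 14.8 and 13.9 in *ndr1*-injected embryos, with an adjusted p of 0.0658 in the limma fit over all named genes. As a check of the labelled stage, 7 blastula genes, among them *pou5f3* and *nanog*, were measured, with means from 11.1 to 15.6, and 5 immune cell genes, with means from 7.38 to 9.81, which as signals of different probes do not rank their expression. None of the marker lists of blastula, enveloping layer, yolk syncytial layer, germ cells or immune cells had a called gene. Measured were 7 blastula, 6 enveloping layer, 3 yolk syncytial layer, 4 germ cell and 5 immune cell genes. At an unadjusted p of at most 0.02 there were 3 markers, beside 2.74% of all named genes. They were *krt18a.1* (enveloping layer, 1.45), *slc40a1* (yolk syncytial layer, -1.24) and *sox3* (blastula, -0.73), all with groups apart. Their limma adjusted p-values were 0.623, 0.671 and 0.694. The lists of these 3, in the same order, had medians of 0.061 (4 higher, 2 lower), -0.15 (0 higher, 3 lower) and -0.019 (2 higher, 5 lower). Groups were also apart for the germ cell genes *dazl* (-0.35) and *nanos3* (-0.31), with all *ndr1*-injected values lower. Of all named genes 8.11% had all *ndr1*-injected values higher and 5.86% had all lower. The part of these markers in the values below was not tested. Detection calls were not used here, so that absence cannot be stated. Arrays of controls correlated at 0.836 to 0.886 with each other over all features and those of *ndr1*-injected embryos at 0.920 to 0.926. Between the groups the correlations were 0.820 to 0.928, so that the highest value of all joined arrays of different groups.

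No proteasome gene passed the test for a difference between *ndr1*-injected and control-injected embryos. With a threshold of 0.05 on the adjusted p, 0 of the 53 genes were called, against 3 of all 14434 named genes (0.0208%). The lowest adjusted p among the members was 0.712 (limma). With so small a share of all named genes, 0 calls among 53 say little about the members. The injected gene *ndr1* itself, at an adjusted p of 0.0658 (limma), was not called. The study used a p of at most 0.02 and names no adjustment. Read here as an unadjusted p on the brightest features, 0 members passed it, compared with 2.74% of all named genes. At an unadjusted p below 0.05 the members again numbered 0, compared with 6.93%. On the brightest features all 53 differences were smaller than 1 log2 unit, a 2-fold change, running from -0.55 to 0.99. Of all named genes 5.01% exceeded that size. In a limma fit of every feature, a dimmer feature of *psmd4a* was at 1.14 (unadjusted p 0.037, adjusted p 0.726). A dimmer feature of *psmd10* was at 1.05 (unadjusted p 0.154).

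The precision of the fit sets how much can be said about single genes. The 95% interval of the difference lay wholly within 1 log2 unit either way for 33 of the 51 proteasome genes, namely 17 of 18 regulatory particle genes, 13 of 23 core particle genes (12 of them alpha or constitutive beta genes) and 3 of 10 chaperone, activator and inhibitor genes. For the others, among them most inducible beta genes and several chaperone genes, a change of 2-fold could not be told from none with 3 arrays a group. Control-injected and *ndr1*-injected values did not overlap for 14 of the 53 members. In 7 (13.2%) all *ndr1*-injected values were the higher ones, beside 8.11% of all named genes, and in 7 (13.2%) they were the lower ones, beside 5.86%. The former were *psma5*, *psma6a*, *psmb1*, *psmb3*, *psmb11a*, *psmd1* and *psmd2*, and the latter *psma2b*, *psma4*, *psmb7*, *psmc6*, *psmd13*, *psmg1* and *psmc3ip*. Their differences ran from 0.093 to 0.66 and from -0.55 to -0.092. Members had smaller median SDs than all named genes, 0.24 beside 0.40 in controls and 0.17 beside 0.29 in *ndr1*-injected embryos. The part of this smaller spread in the shares was not tested.

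**Figure D1:**
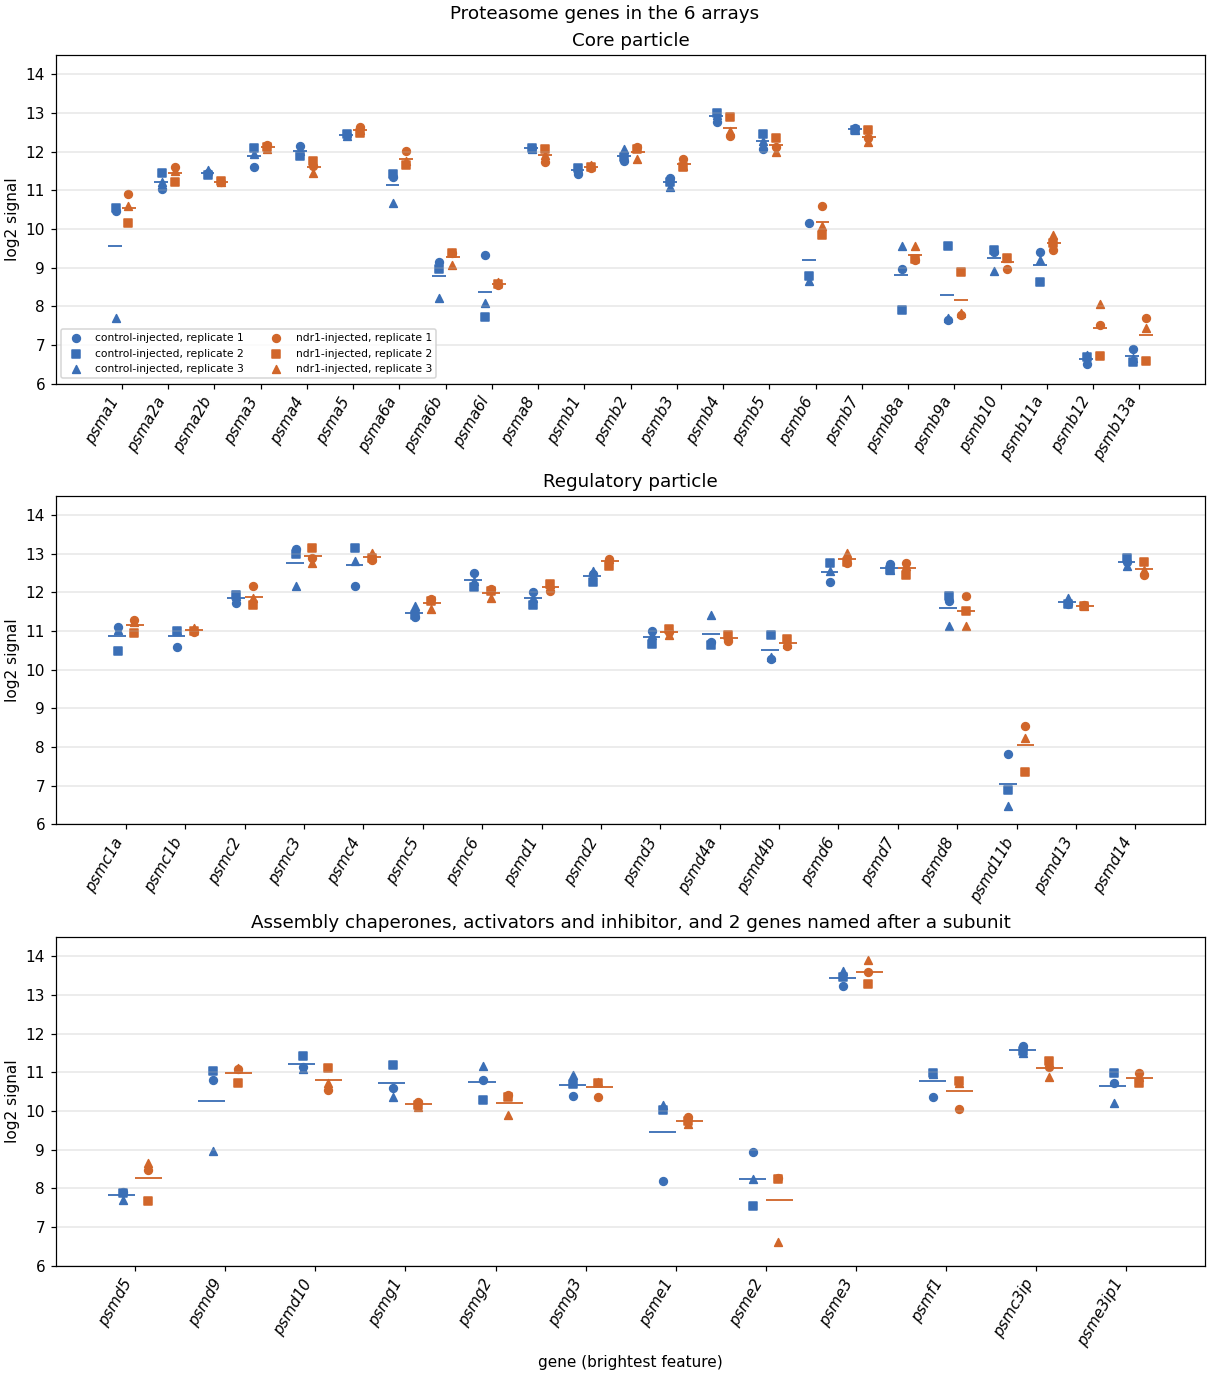
Log2 signal of each of the 53 genes in the 6 arrays, one point per array, with control-injected embryos in blue, *ndr1*-injected embryos in orange, marker shape giving the replicate and short lines the group means. Groups stand apart upwards for 7 genes and downwards for 7, and *psma1*, *psmd9* and *psme1* each have 1 control-injected value far below the other values.

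Core particle genes had a median difference of 0.21 log2 units over 23 genes, beside 0.0060 over all named genes, with 15 higher and 8 lower. Regulatory particle genes had a median of 0.17 over 18 genes, with 13 higher and 5 lower. The 10 chaperone, activator and inhibitor genes had a median of -0.16, with 4 higher and 6 lower. These medians are descriptions without a test. Taken per array, as deviations from the mean of each gene, the core genes had medians of -0.068, 0.016 and -0.12 in controls and 0.12, 0.11 and 0.077 in *ndr1*-injected embryos. Those of the regulatory genes were -0.0012, -0.00081 and -0.015 in controls and 0.056, 0.067 and 0.022 in *ndr1*-injected embryos. Without any subtraction, every *ndr1*-injected array lay above every control array in both particles. Over all named genes the same medians were -0.0043, -0.0028 and 0.035 in controls and -0.010, 0.058 and 0.057 in *ndr1*-injected embryos. They were not subtracted from those of the particles. In *ndr1*-injected replicate 3 the regulatory median of 0.022 lay below the 0.057 of all named genes. In control-injected replicate 1 the regulatory median of -0.0012 lay above the -0.0043 of all named genes. Set against all named genes, the regulatory arrays of both groups therefore overlapped. In the core, control-injected replicate 2 (0.016 beside -0.0028) and *ndr1*-injected replicate 3 (0.077 beside 0.057) came close to each other in this reading. Without the inducible beta genes the core median difference was 0.14 over 17 genes. Its arrays then overlapped in the same reading, at 0.050 beside -0.0028 in control-injected replicate 2 and 0.072 beside 0.057 in *ndr1*-injected replicate 3. Within groups the medians had an SD of 0.051 for the core and 0.017 for the regulatory genes.

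The median difference was higher in members with low signal than in the others. Of 13 members with a mean signal under 10, among them all 6 inducible beta genes, *psmb6*, *psmd11b* and *psma6b*, 10 were higher and the median difference was 0.49. Of 40 members at 10 or more 23 were higher, with a median of 0.10. Over all named genes the same split gave medians of 0.016 and -0.0030. Whether members of low and high signal differed was not tested.

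The alpha subunits, which build the outer rings, had 10 genes on the array, 7 of them higher and 3 lower in *ndr1*-injected embryos, with a median of 0.21 and 0 called. The alpha subunit gene *psma6a* read 11.35, 11.43 and 10.67 in controls and 12.02, 11.66 and 11.75 in *ndr1*-injected embryos, so that the groups did not overlap. Its difference of 0.66 ± 0.28 (SE), or 1.58-fold, had an adjusted p of 0.712 (exact permutation p = 0.1, two-sided, the smallest that 3 arrays against 3 allow). Without control-injected replicate 3 *psma6a* was at 0.42. After subtraction of the median deviation of the surrounding features on the array (position subtraction, with windows of 9 by 9 features) *psma6a* was at 0.34. *psma4* went the other way, with 12.16, 11.89 and 12.03 in controls and 11.62, 11.74 and 11.45 in *ndr1*-injected embryos, again without overlap. The difference of *psma4* was -0.42 ± 0.22 (SE), adjusted p 0.743, and -0.018 with position subtracted. Subtraction also raised the SD of *psma4* within groups from 0.14 to 0.59.

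The largest alpha difference, 0.99 ± 0.75 (SE) for *psma1*, came with the widest spread of the whole family. *psma1* read 10.45, 10.55 and 7.70 in controls and 10.90, 10.16 and 10.60 in *ndr1*-injected embryos, and only control-injected replicate 3 stood apart. *psma2b* showed the opposite pattern, a small difference with little spread: 11.44, 11.38 and 11.51 against 11.22, 11.23 and 11.22, a difference of -0.22 ± 0.20 (SE). *psma5* differed by 0.14, with control-injected values of 12.40 to 12.44 and *ndr1*-injected values of 12.49 to 12.64. The remaining alpha genes *psma2a*, *psma3*, *psma6b*, *psma6l* and *psma8* differed by 0.21, 0.25, 0.49, 0.21 and -0.17, and their groups overlapped.

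Of the 7 constitutive beta genes, 4 were higher and 3 lower, with a median of 0.093 and 0 called. *psmb6*, whose product carries the caspase-like site, had the largest difference among them. It read 10.15, 8.78 and 8.65 in controls and 10.58, 9.84 and 10.08 in *ndr1*-injected embryos, which is 0.98 ± 0.44 (SE) higher, or 1.97-fold (adjusted p 0.712, exact permutation p = 0.3, two-sided). Control-injected replicate 1 lay above *ndr1*-injected replicates 2 and 3, and without that control sample the difference was 1.46, with an adjusted p of 0.619.

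The genes for the other proteolytic sites did not share this size. *psmb5*, for the chymotrypsin-like site, read 12.08, 12.46 and 12.27 in controls and 12.13, 12.36 and 11.99 in *ndr1*-injected embryos (-0.11 ± 0.23, SE). *psmb7*, for the trypsin-like site, read 12.60, 12.57 and 12.55 against 12.35, 12.55 and 12.26 (-0.18 ± 0.21). On the deposited values the 95% intervals of both, from -0.66 to 0.44 and from -0.68 to 0.31, exclude a 2-fold change. That of *psmb6*, from -0.069 to 2.02, does not. With position subtracted *psmb5* was at -0.54 ± 0.22 (SE) and *psmb7* changed direction, to 0.24. Their SDs within groups then rose from 0.19 to 0.22 and from 0.11 to 0.35. Intervals were not computed after subtraction. Whether *psmb6* differed from *psmb5* or *psmb7* was not tested.

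Among the structural beta subunits, *psmb3* had groups that did not overlap, with 11.33, 11.22 and 11.07 in controls and 11.80, 11.60 and 11.63 in *ndr1*-injected embryos. The difference was 0.47 ± 0.21 (SE), adjusted p 0.712. It did not keep its direction once position was subtracted, and was then -0.053, while the SD of *psmb3* within groups rose from 0.12 to 0.30. *psmb1*, *psmb2* and *psmb4* differed by 0.093, 0.11 and -0.30.

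Inducible and tissue-restricted beta subunits replace the constitutive ones in the immunoproteasome of lymphoid and inflamed tissue and, in the case of *psmb11a*, in the thymus. Of 6 such genes 4 were higher and 2 lower, with a median of 0.53 and 0 called. *psmb11a* read 9.40, 8.62 and 9.20 in controls and 9.44, 9.63 and 9.84 in *ndr1*-injected embryos, without overlap and with a difference of 0.56 ± 0.28 (SE). It was 0.34 without control-injected replicate 2 and 0.14 with position subtracted. *psmb12* read 6.52, 6.68 and 6.73 against 7.53, 6.72 and 8.06, a difference of 0.80 ± 0.36 (adjusted p 0.712) that became 0.48 when *ndr1*-injected replicate 3 was left out. *psmb13a* followed the same samples, with 6.89, 6.55 and 6.67 against 7.70, 6.58 and 7.45.

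For *psmb12* and *psmb13a*, *ndr1*-injected replicates 1 and 3 were high and replicate 2 lay among the controls. Both features belong, with that of *psmd11b*, to the dimmest quartile of features, those with a mean under 7.79, and that quartile as a whole had median deviations of 0.069, -0.063 and 0.13 in *ndr1*-injected replicates 1, 2 and 3. The features around *psmb12* on the array deviated by 0.52, 0.013 and 0.73 in the same samples. After subtraction of this local deviation *psmb12* differed by 0.24 and *psmb13a* by 0.13, and the part of the local deviation in these differences was not tested. The immunoproteasome genes proper, *psmb8a*, *psmb9a* and *psmb10*, differed by 0.52 ± 0.42, -0.13 ± 0.58 and -0.10 ± 0.25 (SE), and of the 5 immune cell genes 2 were higher, 3 lower and 0 called.

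**Figure D2:**
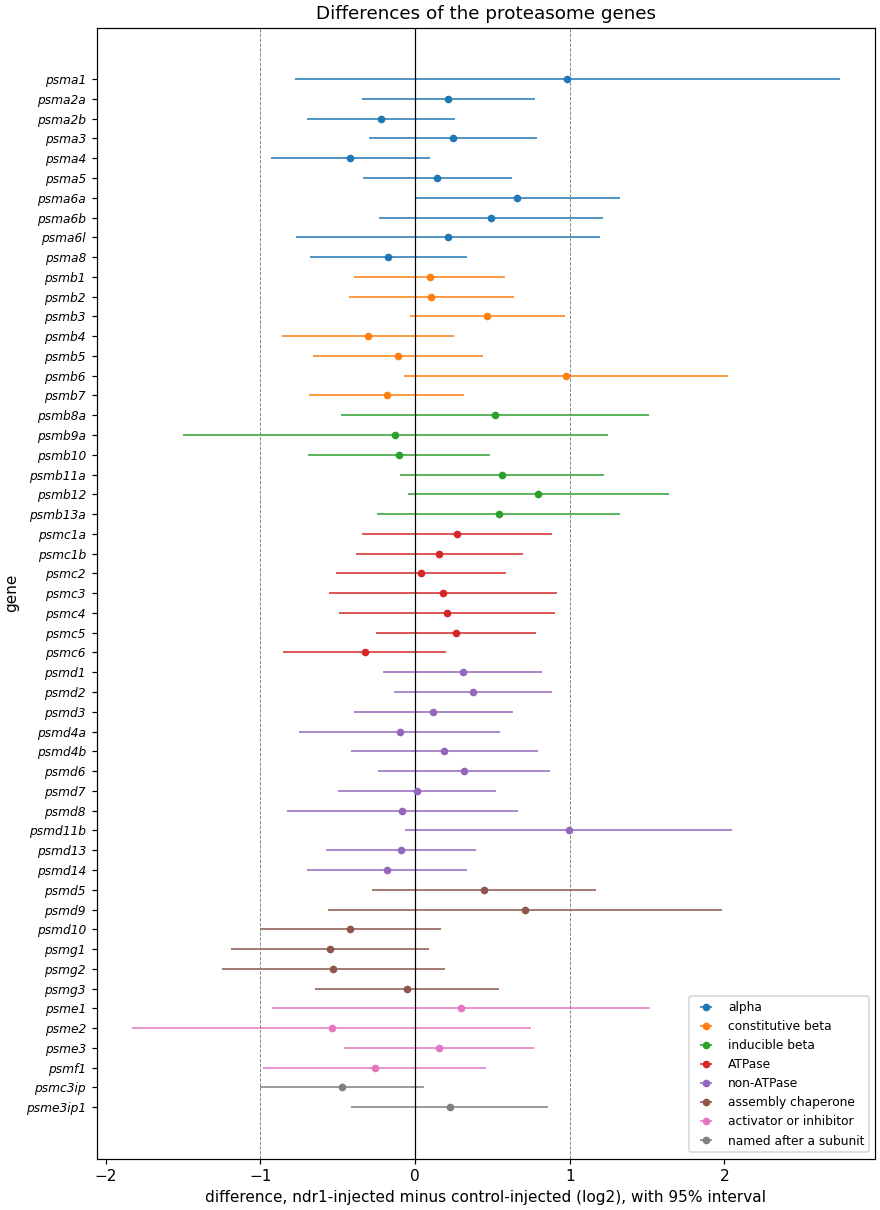
Difference of each gene, *ndr1*-injected minus control-injected, on the log2 scale, with its 95% interval from the limma fit; colours give the role of the product, the solid line marks no difference and the dashed lines a 2-fold change either way. All 53 intervals include 0, and 17 of the 18 regulatory particle genes lie wholly between the dashed lines.

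The 7 ATPase genes of the base were the most even group, with differences from -0.33 to 0.27. Of these 6 were higher and 1 lower, the median was 0.18 and 0 were called. *psmc6* was the one that was lower, at 12.52, 12.15 and 12.29 in controls and 12.09, 12.04 and 11.85 in *ndr1*-injected embryos, without overlap (-0.33 ± 0.22, SE, adjusted p 0.756). *psmc5* read 11.37, 11.41 and 11.64 against 11.84, 11.79 and 11.58 (0.26 ± 0.22, adjusted p 0.780). Neither direction held once position was subtracted, when *psmc6* was at 0.017 and *psmc5* at -0.063. Their SDs within groups then rose from 0.16 to 0.57 and from 0.14 to 0.32. *psmc1a*, *psmc1b*, *psmc2*, *psmc3* and *psmc4* differed by 0.27, 0.16, 0.039, 0.18 and 0.21, and each had a 95% interval within 1 log2 unit.

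Non-ATPase subunits comprise the scaffold and ubiquitin receptors of the base and the proteins of the lid. Of their 11 genes 7 were higher and 4 lower, with a median of 0.12 and 0 called. *psmd11b*, a lid subunit gene, had the largest difference of all members, 0.99 ± 0.45 (SE), which is 1.99-fold (adjusted p 0.712). Its values were 7.82, 6.89 and 6.47 in controls and 8.55, 7.36 and 8.24 in *ndr1*-injected embryos, which overlap at control-injected replicate 1, and without that sample the difference was 1.37. After subtraction of position it was 0.39.

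Both large scaffold subunits of the base had groups apart. *psmd2* read 12.48, 12.27 and 12.56 in controls and 12.87, 12.70 and 12.86 in *ndr1*-injected embryos, a difference of 0.37 ± 0.22 (SE) with an adjusted p of 0.744. *psmd1* read 12.01, 11.68 and 11.85 against 12.03, 12.21 and 12.22 (0.31 ± 0.22). With position subtracted they parted, *psmd2* at -0.092 and *psmd1* at 0.62. Their SDs within groups rose at the same time, from 0.13 to 0.23 for *psmd2* and from 0.14 to 0.45 for *psmd1*. In *ndr1*-injected replicate 2 *psmd1* moved from 12.21 to 13.10, where the surrounding features deviated by -0.89. *psmd14*, the deubiquitinase of the lid, read 12.79, 12.90 and 12.70 against 12.45, 12.79 and 12.59 (-0.18 ± 0.22). *psmd3*, *psmd6*, *psmd7*, *psmd8* and *psmd13*, also of the lid, differed by 0.12, 0.32, 0.012, -0.081 and -0.092, and the ubiquitin receptor genes *psmd4a* and *psmd4b* by -0.099 and 0.19.

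Proteins that help to build the proteasome were the group with the largest share of lower values, on the brightest features as deposited. Among 6 assembly chaperone genes 2 were higher and 4 lower, with a median of -0.24 and 0 called. *psmg1*, which encodes a chaperone of the alpha ring, read 10.60, 11.18 and 10.37 in controls and 10.23, 10.17 and 10.11 in *ndr1*-injected embryos, without overlap (-0.55 ± 0.27, SE, adjusted p 0.729). Its partner gene *psmg2* read 10.80, 10.28 and 11.16 against 10.42, 10.36 and 9.89 (-0.53 ± 0.30, adjusted p 0.744). *psmg1* was at -0.32 without control-injected replicate 2 and at -0.38 with position subtracted, whereas *psmg2* was at -0.32 without control-injected replicate 3 and at 0.030 with position subtracted.

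The third core chaperone gene, *psmg3*, differed by -0.053. Of the chaperones of the base, *psmd10* differed by -0.42 ± 0.25 (SE), *psmd5* by 0.45 ± 0.31 and *psmd9* by 0.71 ± 0.54. The dimmer feature of *psmd10* had the opposite sign, at 1.05, so that its place among the lower genes depended on the feature read. In *psmd9* control-injected replicate 3 stood apart and read 8.96 while the other 5 samples lay between 10.73 and 11.11. The features around that of *psmd9* deviated by -1.03 in that sample, and their part in the difference was not tested.

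The activator genes *psme1*, *psme2* and *psme3*, for subunits of rings that can open the core without ATP, and *psmf1*, for an inhibitor, went both ways. Of the 4 genes 2 were higher and 2 lower, with a median of -0.053 and 0 called. *psme2* read 8.95, 7.54 and 8.25 in controls and 8.26, 8.24 and 6.62 in *ndr1*-injected embryos (-0.54 ± 0.55, SE, adjusted p 0.797), and without *ndr1*-injected replicate 3 it was at 0.0040. *psmf1* read 10.37, 10.98 and 10.97 against 10.05, 10.77 and 10.71 (-0.26 ± 0.31, adjusted p 0.812), and with single arrays left out it lay between -0.46 (control-injected replicate 1) and -0.031 (*ndr1*-injected replicate 1). *psme1* and *psme3* differed by 0.30 and 0.16. Of the 2 genes that are not subunits, *psmc3ip*, for a cofactor of meiotic recombination, differed by -0.47 ± 0.22 without overlap of the groups, and *psme3ip1* by 0.22 ± 0.27.

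Zebrafish carry paralogous copies of some subunits, and 6 such pairs could be read, besides 3 pairs of an inducible subunit and the constitutive one it replaces. None of the 9 differences in response passed its test (exact two-sided permutation tests, adjusted p = 0.8 for each, smallest unadjusted p = 0.2), which 3 arrays a group do not allow. The closest to a difference was *psma2a* against *psma2b*, at 0.21 and -0.22, which leaves 0.43 ± 0.18 (SE) between them. On its dimmer feature *psma2b* was at 0.42, so that the direction of this gap depended on the feature read. *psmc1a* and *psmc1b* were apart by 0.11 ± 0.32, and *psmd4a* and *psmd4b* by -0.29 ± 0.39. Among the copies of the first alpha subunit, *psma6a* exceeded *psma6b* by 0.17 ± 0.16 and *psma6l* by 0.45 ± 0.51, and *psma6b* exceeded *psma6l* by 0.28 ± 0.45. The inducible *psmb8a* was 0.63 ± 0.60 above *psmb5*, *psmb10* was 0.081 ± 0.19 above *psmb7*, and *psmb9a* was at -1.11 relative to *psmb6*, with a standard error of about that size. These values do not show that the genes of a pair behaved alike.

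**Figure D3:**
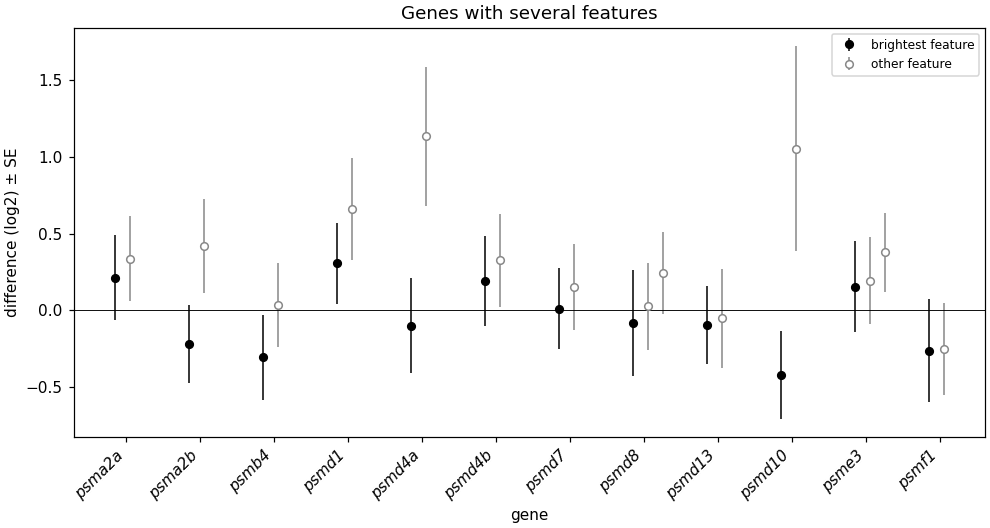
Difference on the log2 scale with its standard error for the 12 genes read by several features, with the brightest feature filled and the other features open. All 14 open points lie above the filled point of their gene, and those of *psmd4a* and *psmd10* lie more than 1 log2 unit above it.

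A second reading was available for the 12 genes with several features. In 7 of them all features had differences of the same sign. Each of the 14 dimmer features had a higher difference than the brightest feature of its gene, by a median of 0.18, and over all named genes 62.3% of 6627 dimmer features did, by a median of 0.16. The widest gaps were in *psmd10*, with 1.05 ± 0.67 (SE) on its dimmer and -0.42 on its brighter feature, and *psmd4a*, with 1.14 ± 0.45 and -0.099. On both dimmer features control-injected replicate 3 was lowest, at 7.93 for *psmd10* with the other 5 samples between 10.18 and 10.88, and at 8.74 for *psmd4a* with the others between 10.17 and 11.07. The dimmer *psma2b* feature, at 0.42, also had the opposite sign to the brighter one. In the genes whose features were close, *psmd13* had -0.051 on the dimmer and -0.092 on the brighter feature and *psmf1* -0.25 and -0.26. The remaining dimmer features read 0.66 in *psmd1*, 0.34 in *psma2a*, 0.33 in *psmd4b*, 0.16 in *psmd7*, 0.036 in *psmb4*, 0.027 and 0.25 in *psmd8*, and 0.19 and 0.38 in *psme3*.

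**Figure D4:**
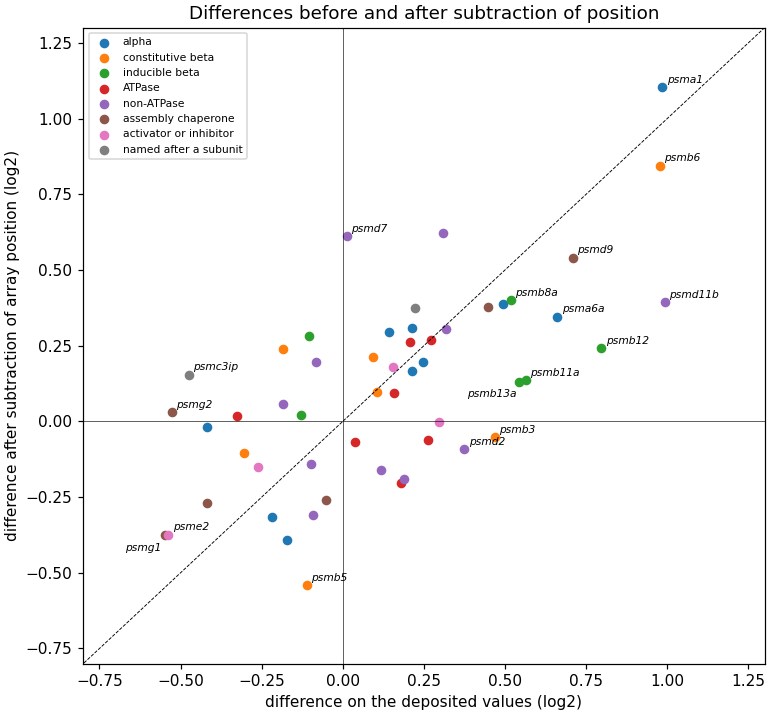
Difference of each of the 53 genes on the deposited values (horizontal) and after subtraction of the local trend with array position in windows of 9 by 9 features (vertical), both in log2 units, with colours giving the role of the product and the dashed line marking equality. *psmb6* and *psma1* stay near the top on both axes, while *psmb3*, *psmd2*, *psmg2* and *psmc3ip* cross 0.

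Neighbouring features deviated together on an array, and subtraction of this local trend moved the members in a way that depended on their brightness. Of 13 members with a mean signal under 10, the spread within groups fell in 12, from a median SD of 0.60 to 0.28. Of 40 members at 10 or more it rose in 32, from 0.19 to 0.35. Over all named genes, of low and high signal together, the median SD fell from 0.41 to 0.32. The immunoproteasome gene *psmb9a* is an example of the first kind, with 7.64, 9.56 and 7.69 in controls and 7.78, 8.89 and 7.83 in *ndr1*-injected embryos as deposited and 7.79 to 8.16 in all 6 samples afterwards. The activator gene *psme1* is another, since its low control-injected replicate 1 moved from 8.19 to 9.53, beside 9.73 to 9.91 in the other samples.

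After subtraction 16 of the 53 members had changed sign, and the differences of the members had moved by a median of 0.20. The share of all named genes that changed sign was not computed. Of all named genes 16 were called, with the brightest feature chosen again after subtraction, and of the members 0. Unadjusted p was below 0.05 for 3, *psmb6* (0.85 ± 0.31, SE), *psmb5* (-0.54 ± 0.22) and *psma1*, each with an adjusted p of 0.794, which is 3 of 53 beside 5.84% of all named genes. For *psmb6* the groups no longer overlapped, at 9.56, 9.52 and 8.71 in controls and 10.55, 9.84 and 9.94 in *ndr1*-injected embryos. For *psma1* they still overlapped, at 10.58, 9.14 and 8.53 in controls and 10.57, 10.49 and 10.50 in *ndr1*-injected embryos. In control-injected replicate 2 *psma1* moved from 10.55 to 9.14, where the surrounding features deviated by 1.41. With the brightest feature again chosen after subtraction, the medians were 0.17 for the core and 0.038 for the regulatory particle, beside 0.050 for all named genes.

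Genes that supply or serve the proteasome were read from a list of 41 symbols. Of 28 measured genes for ubiquitin, its conjugation and shuttling, proteasome maturation and proteasome-bound enzymes, 18 were higher and 10 lower. The median was 0.11, with differences from -0.32 to 0.37 and 0 called. Both *ubb* (0.089) and *rad23ab* (-0.019) read the highest value of the array in every sample except control-injected replicate 1. Values at the top of the range limit what the differences of *ubb* and *rad23ab* can show. The smallest p-values belonged to *nfe2l1a*, whose mammalian counterpart activates proteasome genes when degradation is impaired (0.37 ± 0.23, SE, adjusted p 0.747), the conjugating enzyme gene *ube2d1a* (0.35 ± 0.24) and the deubiquitinase gene *uchl5* (0.30 ± 0.22). *nfe2l1a* read 7.66, 7.81 and 7.82 in controls and 8.08, 7.93 and 8.38 in *ndr1*-injected embryos, without overlap, and its mean over several features was at -0.13. *ube2d1a* and *uchl5* were at -0.10 and -0.092 once position was subtracted. The maturation factor gene *pomp* differed by 0.050.

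Cytoplasmic ribosomal protein genes, which build the protein-making machinery, were read for comparison. They were taken by symbol alone, as those beginning with *rpl* or *rps* and a digit. Genes only named after a ribosomal protein were not set aside. Over the 78 genes so taken the median difference was 0.043, with 44 higher, 34 lower and 0 called, and differences from -0.85 to 0.62. Within groups they varied less than the proteasome genes, with median SDs of 0.13 in controls and 0.16 in *ndr1*-injected embryos beside 0.24 and 0.17 for the 53 members and 0.40 and 0.29 for all named genes. The difference between both families was not tested.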

How the data were processed

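The authors hybridised fluorescently labelled cDNA from 15 µg of total RNA to Agilent zebrafish arrays, scanned them with a GenePix scanner and normalised the signals by qspline. The deposited log2 values were used as they are. Their range and equal medians served to identify the log2 scale, which the authors do not state; neither background correction nor slide is given in the sources used here. Of 45220 features 21061 carried 1 gene symbol, updated through the GRCz12tu RefSeq annotation to 14434 genes; member symbols did not change. Sequences and genomic positions were not used here.

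Differences over all named genes were fitted with lmFit and eBayes (limma 3.58.1, R 4.3.3) and adjusted by the Benjamini-Hochberg method. The scripts were tested on simulated data. Members given with all values are the 2 with the smallest p in each role, and further ones, the pair tests, the split at a signal of 10 and the comparison of dimmer features came after inspection of the values; members and lists were chosen with earlier results of these data known. Array position was subtracted as the median deviation of surrounding features from their median over the arrays, on a grid 85 features wide, inferred from the correlation of neighbouring features. Alternatives were other gene values, normalisations, filters, variance models, windows, a replicate block and each array left out. The number of arrays limits the precision.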

Additional observations from a re-analysis of the deposited data

How the results depend on the processing

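No proteasome gene was called under any of the 18 alternatives run, nor at an adjusted p below 0.1 or 0.2. With every feature on its own, with a replicate block and without each array in turn, 0 of all named genes were called. In those alternatives the count of members could only be 0, and in the others at most 27 of all named genes were called. The median differences of both particles were above 0 in all alternatives. The median of all named genes moved as well, to 0.050 and 0.056 with windows of 9 and 15, and the regulatory median was below it in both. At an unadjusted p of at most 0.02, 0 members passed as fitted. With an intensity trend and robust variance 1 of 53 passed (*psma6a*), beside 2.83% of all named genes. With position windows of 5 (*psmd1*), 15 and 25 (*psmb6*) 1 of 53 passed each time, beside 2.31%, 2.33% and 2.42%. Without each array in turn 0 to 2 of 53 did. Without control-injected replicate 1 they were *psmb6* and *psmd11b*, beside 3.07% of all named genes. Without *ndr1*-injected replicate 2 they were *psmb12* and *psmb13a*, beside 3.77%. Whether members passed more or less often than all named genes was not tested. The core median was 0.14 with the dimmest quartile of features left out, 0.14 with array weights, 0.13 with a window of 5, and 0.11 to 0.21 without each array in turn. The regulatory median was 0.19 with the mean of all features, 0.15 with array weights, 0.10, 0.038, 0.055 and 0.086 with windows of 5, 9, 15 and 25, and 0.067 to 0.19 without each array. Of the arrays left out, control-injected replicate 1 gave the lowest value. The median of chaperone, activator and inhibitor genes had no settled direction, at 0.095 with the mean of all features, 0.051 over single features, -0.027 with array weights and -0.27 to 0.020 without each array (above 0 without *ndr1*-injected replicate 1).

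Single genes that changed direction did so mainly with position. With windows of 9 this subtraction raised the spread within groups in 32 of the 40 members with a mean signal of 10 or more. Over all named genes the median SD within groups fell from 0.41 to 0.32. With windows of 5, 9, 15 and 25 *psmc6* was at 0.12, 0.017, 0.069 and 0.13 and *psmd2* at -0.15, -0.092, -0.065 and -0.027. With 9, 15 and 25 *psmb3* was at -0.053, -0.17 and -0.12. With 5, 9 and 15 *psmg2* was at 0.11, 0.030 and 0.010 and *uchl5* at -0.15, -0.092 and -0.036. With 5 and 9 *psmc5* was at -0.022 and -0.063, with 9 and 15 *ube2d1a* at -0.10 and -0.056, and with 5 *psmb12* at -0.029. *nfe2l1a* was at -0.13 with the mean of its features, and with single arrays left out *psme2* lay between -0.89 and 0.0040, the latter without *ndr1*-injected replicate 3. The cause was not tested.

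With the replicate number as a replicate block the core median was 0.21, and 0 members and 0 of all named genes were called. Deviations of same-numbered samples correlated at 0.17, -0.096 and 0.020, so the numbers were not taken to pair the samples. The 3 members among the dimmest quartile of features have values near the lower end of the arrays, which limits what their differences can show.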
